A study of Mus musculus with 6 samples.

Results

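Among the 344780 autosomal 100-CpG windows of this mouse embryonic stem cell methylome, 6736 were CpG-dense, here meaning no longer than 1500 bp, and 130 of these were methylated in spite of that density. The 130 windows were chosen by a rule on the measured values, namely a length of at most 1500 bp on chromosomes 1 to 19 and a mean CpG methylation of 60% or more over the 6 libraries. The 5964 windows of the same lengths with a mean under 20% served as the comparison, and the remaining 642 lay between. The whole table held 359192 windows. A window that holds 100 CpG cytosines counts both strands, so that the methylated dense windows had a median of 51 CpG dinucleotides each.

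Methylation was measured by enzymatic methyl sequencing (EM-seq), in which TET2 oxidation protects methylated and hydroxymethylated cytosines from APOBEC deamination, so that 5mC and 5hmC are read together. The cells were E14TG2a mouse embryonic stem cells (mESCs) of the 129/Ola strain, with no genetic change named in the labels. They were grown on gelatin in serum with leukaemia inhibitory factor. The paper's E14 lines were gifts of Kristian Helin and Joshua Brickman, and it does not say which gave these cells. Cultures were labelled with EdU, fixed in ethanol, stained with propidium iodide and sorted by DNA content into G1 and G2/M populations, with 3 biological replicates of each. All 6 libraries share the named line, the medium and the labelling, so the phase is the one condition that differed by design.

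CpG dinucleotides are rare in the mouse genome because methylated cytosine mutates readily, and the places where they are dense, called CpG islands, mostly lie over gene starts and are kept free of methylation. The enzymes DNMT3A and DNMT3B set new methylation and DNMT1, guided by UHRF1, copies it to the daughter strand after replication. Methylated CpG islands are known from imprinted genes, from germline genes silenced in other cells, from repeats and from the bodies of transcribed genes.

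The methylated dense windows lay in protein-coding exons more often than the comparison windows did. At least 50% of the window was coding sequence in 74 of the 130 (56.9%), against 11.8% of the dense windows under 20% and 0.521% of all autosomal windows. The 642 dense windows of intermediate methylation lay between, at 29.1%. The start site of a protein-coding transcript was covered by 8 of the 130 (6.15%), against 54.1% of the comparison windows. The share was 22.6% of the intermediate dense windows and 6.76% of all autosomal windows, which are mostly longer. The 130 thus lay near the autosomal share, and the comparison windows far above it. These counts describe windows sorted by their own methylation and carry no test.

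Sequences from 6 of these windows are shown to let the CpG spacing be read, chosen as the highest-mean and the start-site windows in turn among those that aligned nowhere else. Each is the 300 bases of the window with the most CpGs, from the plus strand of GRCm38 (RefSeq), with every CG in capitals.
Disp1 chr1:183088920-183089219: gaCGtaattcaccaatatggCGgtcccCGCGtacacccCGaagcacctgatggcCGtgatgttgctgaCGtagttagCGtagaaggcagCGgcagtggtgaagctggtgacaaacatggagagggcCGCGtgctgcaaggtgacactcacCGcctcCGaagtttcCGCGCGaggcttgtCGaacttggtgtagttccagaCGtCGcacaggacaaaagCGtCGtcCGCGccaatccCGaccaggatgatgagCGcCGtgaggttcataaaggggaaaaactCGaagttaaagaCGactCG
Ttn chr2:76879004-76879303: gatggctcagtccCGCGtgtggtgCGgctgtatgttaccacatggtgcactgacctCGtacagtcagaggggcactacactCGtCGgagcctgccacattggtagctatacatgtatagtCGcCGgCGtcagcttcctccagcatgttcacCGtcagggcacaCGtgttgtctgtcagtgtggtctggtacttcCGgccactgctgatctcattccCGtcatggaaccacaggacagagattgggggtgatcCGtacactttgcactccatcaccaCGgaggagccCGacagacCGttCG
Arid4a chr12:71075416-71075715: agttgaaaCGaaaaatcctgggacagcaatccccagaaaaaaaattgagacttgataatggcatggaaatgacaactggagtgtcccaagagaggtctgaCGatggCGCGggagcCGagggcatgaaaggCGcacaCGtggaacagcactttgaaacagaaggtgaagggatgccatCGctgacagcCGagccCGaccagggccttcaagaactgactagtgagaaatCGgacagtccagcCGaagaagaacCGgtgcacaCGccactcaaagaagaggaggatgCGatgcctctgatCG
Bnc2 chr4:84291898-84292197: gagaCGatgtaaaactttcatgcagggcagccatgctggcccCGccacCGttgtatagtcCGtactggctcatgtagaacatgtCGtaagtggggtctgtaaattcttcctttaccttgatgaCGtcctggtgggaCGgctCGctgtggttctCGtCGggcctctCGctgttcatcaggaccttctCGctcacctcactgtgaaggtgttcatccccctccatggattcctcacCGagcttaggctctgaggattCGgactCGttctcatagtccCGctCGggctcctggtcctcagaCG
Dpep3 chr8:105978984-105979283: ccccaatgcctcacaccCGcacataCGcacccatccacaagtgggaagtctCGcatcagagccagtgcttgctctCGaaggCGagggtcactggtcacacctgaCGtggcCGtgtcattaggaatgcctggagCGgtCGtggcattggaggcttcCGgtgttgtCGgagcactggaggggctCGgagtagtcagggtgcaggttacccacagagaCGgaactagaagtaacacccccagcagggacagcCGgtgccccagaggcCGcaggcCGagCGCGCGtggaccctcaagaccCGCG
Ankrd50 chr3:38455707-38456006: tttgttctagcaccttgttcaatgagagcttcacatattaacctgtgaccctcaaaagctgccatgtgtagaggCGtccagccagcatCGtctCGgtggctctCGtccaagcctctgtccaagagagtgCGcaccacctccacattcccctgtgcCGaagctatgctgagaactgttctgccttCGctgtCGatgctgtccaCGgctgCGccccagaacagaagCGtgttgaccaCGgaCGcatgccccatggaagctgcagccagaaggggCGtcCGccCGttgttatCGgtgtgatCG
The Disp1 stretch held 29 CpGs, the Dpep3 stretch 21, the Bnc2, Ttn and Ankrd50 stretches 18 each and the Arid4a stretch 16. Disp1 encodes the transporter-like protein that releases Hedgehog ligands, and Ttn encodes the giant muscle protein titin. Arid4a and Bnc2 encode nuclear DNA-binding proteins, Dpep3 a testis dipeptidase, and Ankrd50 an ankyrin-repeat protein of endosomal recycling.

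For comparison, the same is shown for a pair of coding windows that were listed at 0% in all 6 libraries.
Fahd1 and Hagh chr17:24849768-24850067: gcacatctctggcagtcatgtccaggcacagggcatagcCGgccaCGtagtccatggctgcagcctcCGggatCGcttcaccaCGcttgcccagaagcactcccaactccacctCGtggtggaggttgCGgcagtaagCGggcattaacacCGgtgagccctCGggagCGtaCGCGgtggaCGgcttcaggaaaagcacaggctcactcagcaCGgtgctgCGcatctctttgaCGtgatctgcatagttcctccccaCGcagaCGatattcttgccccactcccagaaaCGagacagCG
Tti2 chr8:31150863-31151162: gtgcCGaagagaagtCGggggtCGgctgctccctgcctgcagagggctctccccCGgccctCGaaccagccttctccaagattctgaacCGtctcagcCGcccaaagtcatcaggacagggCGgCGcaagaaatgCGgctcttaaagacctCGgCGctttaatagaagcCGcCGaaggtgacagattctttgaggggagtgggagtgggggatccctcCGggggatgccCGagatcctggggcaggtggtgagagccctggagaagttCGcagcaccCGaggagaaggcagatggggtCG
These stretches held 21 and 19 CpGs, within the range of the methylated ones. Fahd1 and Hagh encode metabolic enzymes of the mitochondrion and the glyoxalase pathway, and their window was 60.6% coding. Tti2 encodes a partner of the PI3K-like kinases, and its window was 52.8% coding.

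The values of the methylated dense windows were spread widely in every library. In G1 the lowest, median and highest of the 130 were 39.8%, 72.6% and 97.5% in replicate 1, 34.6%, 69.3% and 97.1% in replicate 2 and 53.4%, 78.4% and 100% in replicate 3. In G2/M they were 41.5%, 72.8% and 91.9% in replicate 1, 26.9%, 67.2% and 100% in replicate 2 and 42.4%, 78.9% and 97.4% in replicate 3. Replicate 3 was the highest library of both phases and replicate 2 the lowest, and the same order held for the mean over all autosomal windows (69.1% and 60.7% in G1, 68.4% and 60.1% in G2/M). G1 replicate 3 gave the highest value in 41 of the 130 windows and G2/M replicate 3 in 36. The comparison windows had library means between 3.49% and 4.44%.

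**Figure D1:**
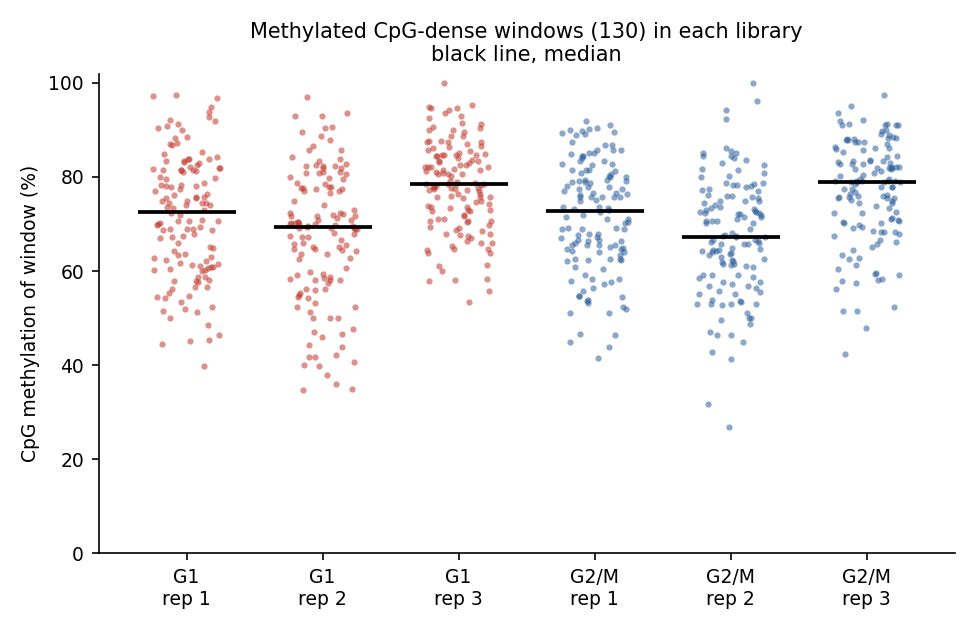
CpG methylation (%) of each of the 130 methylated dense windows (points) in each of the 6 EM-seq libraries, G1 in red and G2/M in blue, with the median as a black line. The medians run from 67.2% to 78.9%, replicate 3 lies highest in both phases, and the clouds of the phases overlap.

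Single windows varied more between libraries than longer windows of like level did. The range over the 6 libraries had a median of 28.2 percentage points among the methylated dense windows, from 9.45 to 55.1. It had a median of 18.4 among the 258866 longer autosomal windows that also averaged 60% or more. The SD within a phase had a median of 10.9 percentage points in the former and 7.14 in the latter. The 642 dense windows of intermediate methylation came close, with a median range of 25.8 and a median SD of 9.62 percentage points. Such spread was thus not particular to the methylated windows. The deposited percentages come without read counts, so the depth behind any window is unknown, no interval was computed, and the part of depth in this spread was not tested.

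By the threshold on the mean, the windows just inside were Stox2 at 60.1%, the pseudogene Gm19430 at 60.2% and Nin at 60.3%. Just outside were Bsn and Kcnj4, both at 59.5%. By length, the longest of the 130 were 1500 bp in Abca2 (60.5%) and Rnf6 (67.9%) and 1499 bp in an intergenic repeat on chromosome 14 (82.0%), while windows of 1501, 1504 and 1504 bp with means of 70.9%, 60.1% and 67.5% fell just outside. The median over the 130 was 71.8%.

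The 74 coding windows had window means from 60.1% to 85.7%, with a median of 71.2%. The longest coding exon that each of them met had a median length of 2114.5 bp, against 858 bp for the 704 comparison windows that were also at least 50% coding. In all, 45 windows lay wholly inside a single coding exon. The longest such exon was the 8020 bp exon of Spen, a transcriptional corepressor gene, where the window averaged 70.3%. Others lay in the 6518 bp exon of Ankrd11 (66.9%), the 6213 bp exon of the cytoskeletal linker Plec (71.6%) and the 5454 bp exon of the transcription factor Zfhx3 (74.0%).

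Disp1 had the highest mean among the coding windows. Its window, chr1:183088577-183089336, is 760 bp long, wholly coding and 58505 bp from the nearest start site of a coding transcript. It read 93.9%, 79.8% and 94.6% in the G1 libraries and 76.6%, 78.2% and 91.3% in the G2/M libraries. It was high in every library, and the phases overlapped. The Arid4a window, chr12:71075315-71076768, followed Ttn with 92.8%, 70.3% and 94.6% in G1 against 77.3%, 75.0% and 92.1% in G2/M.

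Titin gave 3 windows. The one with the second highest coding mean, chr2:76877973-76879456, covered short exons and read 88.3%, 77.6% and 78.4% in G1 against 86.9%, 83.6% and 91.0% in G2/M. The other two adjoined inside the 5459 bp exon near the far end of the gene. The first of them, chr2:76711659-76713156, read 83.9%, 93.0% and 76.1% in G1 against 79.2%, 72.2% and 79.6% in G2/M. The second, chr2:76710460-76711658, was lower at 39.8%, 75.0% and 77.9% in G1 against 70.3%, 55.9% and 59.6% in G2/M. The mean of the 3 windows, 76.0%, was close to the median of the gene's other windows (80.1%), none of which was under 20%.

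Fat1, which encodes a giant cadherin, held 5 of the 130 windows, as many as the whole alpha protocadherin cluster and more than any other gene. A run of 3 adjoining windows at chr8:45023383-45026737, the longest run found, lay in a 4068 bp exon. The first of the run was the shortest of all 130 windows, at 749 bp, and read 83.3%, 58.3% and 65.3% in G1 against 80.2%, 64.6% and 79.2% in G2/M. The next read 70.1%, 41.7% and 74.2% in G1 against 65.6%, 64.4% and 86.4% in G2/M. The last read 63.0%, 68.9% and 82.9% in G1 against 78.8%, 77.8% and 56.2% in G2/M. Window means in the run were 71.8%, 67.0% and 71.3%, with no library consistently low. The 44 windows of the gene included 9 dense ones, and 2 windows were under 20%. The mean over its 5 windows was 67.7% against a median of 64.8% for its other windows.

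The desmosomal plaque protein gene Dsp gave a pair of adjoining windows in a 3234 bp exon, with means of 70.2% and 75.4%. The second of them, chr13:38196523-38197951, read 81.6%, 71.2% and 84.0% in G1 against 75.7%, 71.1% and 68.5% in G2/M. Over the rest of Dsp the window median was 67.7%, and 1 window, at the gene's start, was at 0.719%. Ankrd50 gave a pair in a 3539 bp exon (78.3% and 73.8%) and the volume-regulated channel subunit gene Lrrc8d one in a 2577 bp exon (71.9%). The synaptic adhesion gene Tenm3 gave windows of 70.2% and 81.0%. Ankrd11 and the Notch ligand gene Jag2 also gave a pair each, with means of 64.1% and 66.9% and of 63.1% and 69.4%.

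**Figure D2:**
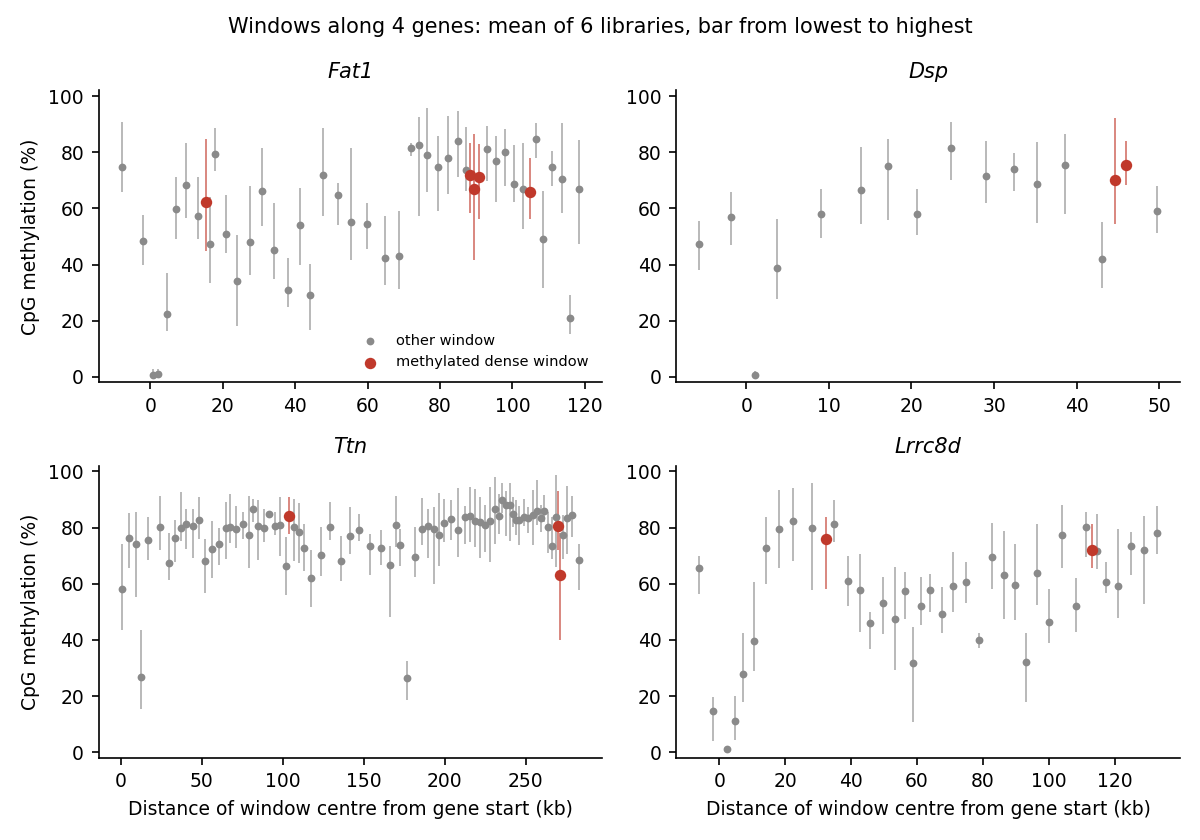
Mean CpG methylation over the 6 libraries (points) with the lowest to the highest library (bars) for windows along Fat1, Dsp, Ttn and Lrrc8d, against the distance of the window's centre from the gene's start in kb. Methylated dense windows are in red and sit at levels that other windows (grey) of the same genes also reach, while Fat1, Dsp and Lrrc8d have windows near 0% at their starts.

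The clustered alpha protocadherins, neuronal adhesion genes whose variable first exons stand in a row on chromosome 18, gave 5 windows with means from 64.0% to 80.7%. Of the 18 dense windows in genes whose symbol begins with Pcdha, 5 were methylated, 9 were intermediate and 4 were under 20%. Together with other Pcdh, Fat and Celsr genes, 13 of 68 dense windows (19.1%) were methylated, against 1.93% of all dense windows. Of their 56 dense windows that were at least 50% coding, 12 (21.4%) were methylated, against 7.67% of all such coding dense windows. Celsr1 and Celsr2, the planar polarity cadherins, had window means of 62.6% and 71.7%. Zinc finger genes with a Zfp symbol gave 4 of 129 (3.10%), which were Zfp84 (76.1%), Zfp790 (75.6%), Zfp619 (69.4%) and Zfp791 (61.9%). Both families were picked after their values had been seen. For 3 of the 5 alpha protocadherin windows, 1 other alignment in the genome was found.

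Some methylated coding windows lay within 2000 bp of a start site, 16 in all. Among them were genes carried as single coding exons, such as Pabpc2, a poly(A)-binding protein gene with a 1884 bp exon, whose window averaged 75.1%. Tktl2, a transketolase-like gene, averaged 71.6% and Kif2b, a kinesin gene, 65.9%. The centres of these windows were 991, 801 and 1100 bp from the nearest coding start site.

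Across all 6736 dense windows, taken by position and without regard to methylation, the share in the methylated group was larger with more coding content and at more distance from a start site. It was 0.123% (6 of 4888) for windows under 50% coding whose centre lay within 2000 bp of a coding start site, and 2.65% (16 of 604) for windows of at least 50% coding that near. Beyond 2000 bp it was 5.66% (50 of 883) and 16.1% (58 of 361), and for coding windows beyond 10000 bp it was 23.3% (35 of 150). Even there 61 of the 150 were under 20%, so such a position did not fix the level. Among coding windows beyond 2000 bp, the share was 8.13% (10 of 123) where the longest coding exon was under 1000 bp and 20.2% (48 of 238) where it was 1000 bp or more.

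The shortest windows of the 130 were mostly coding. After Fat1 (749 bp) and Disp1 (760 bp) came Zbtb14 (814 bp, 65.9%), Lrrc8a (887 bp, 72.2%), Lrrc8d (921 bp), Dync1h1 (946 bp, 64.7%), Celsr2 (949 bp) and 3 alpha protocadherin windows of 881, 933 and 948 bp. Of these 10, only the Lrrc8d window held no coding sequence.

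The order of the dense windows by coding content and distance was seen in each library. Coding windows beyond 2000 bp averaged 26.1%, 24.9% and 29.3% in the G1 libraries and 27.1%, 25.1% and 29.9% in the G2/M libraries. Those under 50% coding and near a start averaged 4.44%, 4.56% and 5.38% in G1 against 4.27%, 4.51% and 5.27% in G2/M. The lowest library of the first set was thus above the highest of the second by more than the spread among libraries of either.

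**Figure D3:**
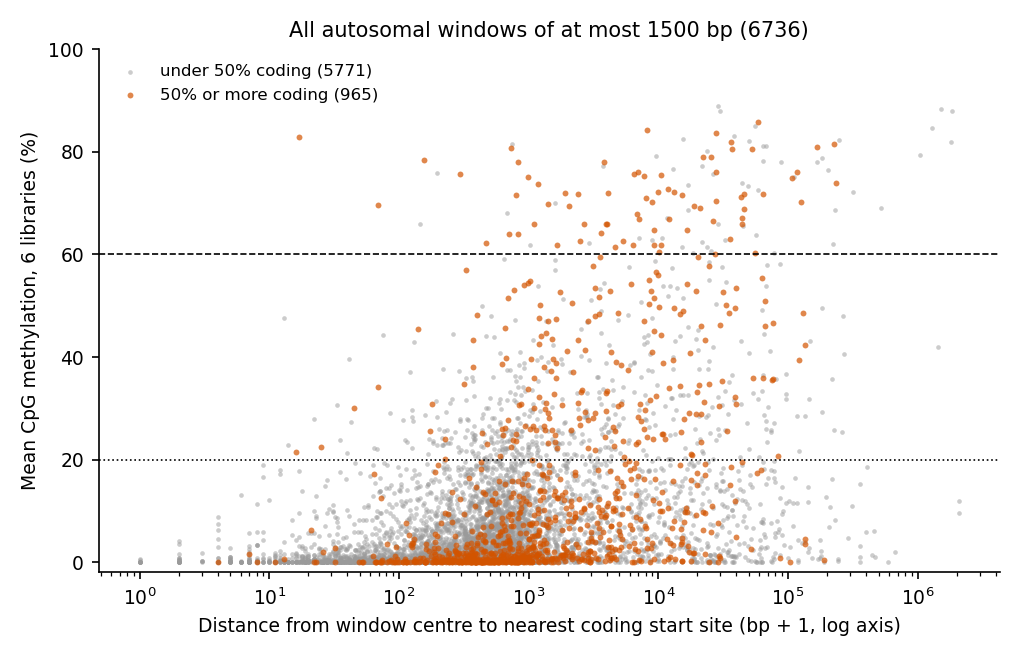
Mean CpG methylation over the 6 libraries of each of the 6736 dense autosomal windows against the distance from its centre to the nearest coding start site (log axis, bp + 1), in orange where at least 50% of the window is coding (965) and in grey otherwise (5771). The dashed line at 60% and the dotted line at 20% bound the methylated and the comparison windows, and few points above 60% lie within 100 bp of a start site.

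The methylated windows were also longer and less CpG-rich than the comparison windows. Their median length was 1333.5 bp against 911 bp in the comparison windows, and the ratio of observed to expected CpG had a median of 0.581 against 0.720. The median GC content was 53.1% against 59.2%. The 642 dense windows of intermediate methylation had medians of 1304.5 bp, 0.553 and 55.2%. Greater length and a lower CpG ratio were thus not particular to the methylated windows. By length, none of the 585 windows of up to 500 bp was methylated, 1 of 1474 up to 750 bp, 10 of 1474 up to 1000 bp, 35 of 1613 up to 1250 bp and 84 of 1590 (5.28%) up to 1500 bp. Length, coding content and distance from a start site moved together, and their separate parts were not tested. The methylated and the comparison windows both stood far from the typical autosomal window, which was 5690 bp long with a ratio of 0.194.

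A small group of 12 windows was made of repeats, taken as at least 50% soft-masked sequence in the reference. They had the highest level of any group, with a median window mean of 81.6% against 71.2% for the coding ones. Of all dense windows only 17 were so masked, and 12 of these were methylated. Other alignments of at least 90% identity over 50% of the window were found for 11 of the 12, from 4 to 3293 of them. The authors discarded reads of mapping quality under 20, so that these windows were read through the reads that could be placed.

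The windows with the highest means of all were mostly of this kind or intergenic. The highest, chr6:124606494-124607881 in no annotated gene, averaged 89.0%, and 46% of it was soft-masked. The next, chr10:47754049-47755543, averaged 88.4%, was 97.2% soft-masked and had 238 other alignments. A chromosome 14 window averaged 88.0% with 134 other alignments, and a window in an intron of the predicted gene Gm48544 87.9%. Intergenic windows on chromosomes 5, 1 and 7 followed at 85.0%, 84.6% and 83.1%, so that among the 10 highest only Disp1, Ttn and Arid4a were coding. Without windows that aligned elsewhere, 107 of the 130 remained.

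Start sites of coding transcripts were rare among the 130 (6.15%, against 6.76% of all autosomal windows), and most were internal ones. Of the 8 windows over a start site, those in Bnc2 (82.9%), Ankrd50 (78.3%), Lrrc8d (75.8%), Tshz2 (69.6%) and Fat1 (62.3%) lay over alternative starts between 14552 and 382394 bp into the gene. One in the alpha protocadherin cluster (75.6%) lay over the start of the annotated gene Gm37388. The Lrrc8d window was the most GC-rich of the 130, at 65.7%. It held no coding sequence and read 83.9%, 58.1% and 78.1% in G1 against 79.4%, 72.4% and 82.9% in G2/M.

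The windows over the outermost start of a named gene were those of Dpep3 and Itgad. The Dpep3 window, chr8:105977936-105979429, read 85.4%, 81.1% and 82.2% in G1 against 86.8%, 66.0% and 87.5% in G2/M. The Itgad window, over the start of a leukocyte integrin gene, read 60.6%, 54.3% and 82.1% in G1 against 53.9%, 66.3% and 78.9% in G2/M. The lowest Dpep3 value was that of G2/M replicate 2, and the highest Itgad values were those of the third replicates.

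Germline, imprinted and methylation genes were looked at as lists, since germline and imprinted genes are textbook bearers of promoter methylation. Of 44 germline genes, 43 had a start in an autosomal window but only 7 had one in a dense window. The dense start window was methylated for 1 of the 7, Dpep3. It was intermediate for the bHLH factor gene Sohlh2 (44.6%), the synaptonemal gene Sycp1 (50.0%) and the piRNA pathway gene Tdrd1 (30.7%), and under 20% for Prdm9, Smc1b and Stag3. Of 49 imprinted genes, 11 had a start in a dense window and none of these windows was among the 130. A window methylated on only 1 allele would fall short of the limit on the mean, so this count cannot speak for such methylation. For 4 of these genes a dense start window was intermediate, in Gnas (35.9%), in Inpp5f (36.2%) and in a window shared by Peg3 and Usp29 (27.6%). For 9 genes a dense start window was under 20%, and some genes had windows of both kinds. Of 20 genes for setting, copying, reading or removing methylation, 4 had a start in a dense window (Cxxc1, Kdm2b, Mbd3 and Uhrf1), all under 20%. The start windows of Dnmt1, Dnmt3a and Dnmt3b were all longer than 1500 bp.

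Other windows of the 130 lay beside or within genes of these lists. The centre of a window at chr17:50293689-50294947 lay 682 bp from the germ cell RNA-binding protein gene Dazl, and the window's edge lay nearer. This window read 66.0%, 67.2% and 86.2% in G1 against 67.7%, 53.8% and 67.9% in G2/M. A window of the coding exon of Peg10, a retrotransposon-derived imprinted gene, averaged 71.1%. A window at chr15:72808558-72810046, in exonic sequence of the imprinted noncoding transcript Peg13 inside the Trappc9 gene, read 97.5%, 79.7% and 85.5% in G1 against 69.0%, 76.2% and 86.0% in G2/M. It averaged 82.3%, and the allele from which a read came cannot be told apart in these percentages.

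The windows on either side were methylated as well. The adjacent windows had median means of 71.8% upstream and 73.1% downstream, and 83.1% and 84.6% of them averaged 60% or more. Among all autosomal windows the share was 75.1% and the median 68.1%, so methylated neighbours are common in this methylome and not particular to the 130. Next to the dense windows of intermediate methylation the shares were lower, at 41.59% upstream and 45.95% downstream. Next to the comparison windows the medians were 40.4% and 39.6%, and at the second window away they were 61.6% and 61.9%. In the libraries the methylated windows exceeded the mean of their adjacent windows by 1.61, 2.52 and 3.57 percentage points in G1 and by 2.31, 1.09 and 2.69 in G2/M. The comparison windows fell by 32.6, 31.9 and 36.6 percentage points below theirs in G1 and by 32.3, 32.0 and 36.7 in G2/M. The 130 windows stood near the level around them, whereas the comparison windows stood in dips. Both sets were chosen by their own level, so this contrast follows in large part from the rule and carries no test.

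**Figure D4:**
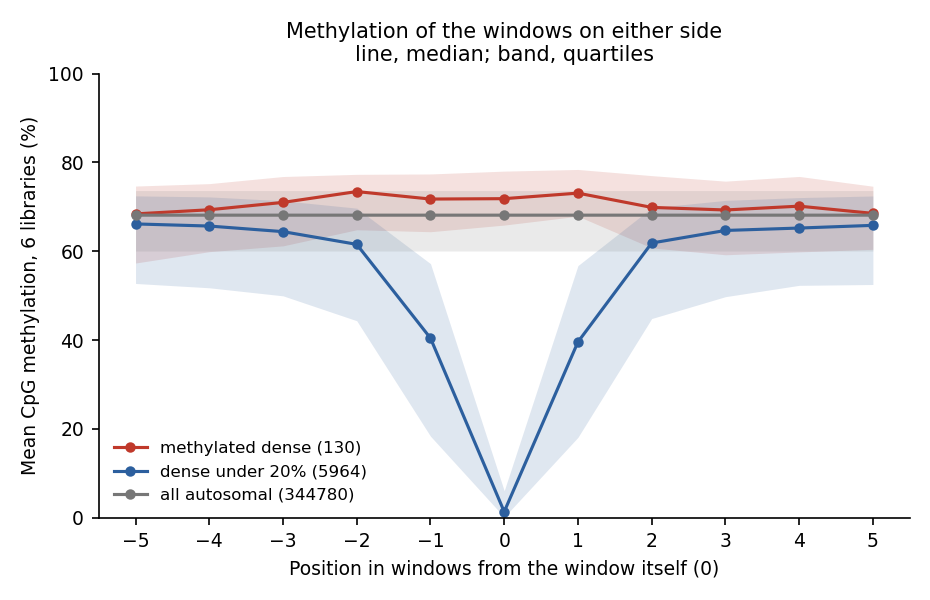
Median (line) and quartiles (band) of mean CpG methylation at the window itself (position 0) and at the 5 windows on each side, for the 130 methylated dense windows, the 5964 dense windows under 20% and all 344780 autosomal windows. The red line is nearly flat at about the level of its adjacent windows, 71.8% and 73.1%, and the blue line dips, with 40.4% and 39.6% at the adjacent windows.

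Chromosome 8 carried 20 of the 130 windows, or 4.93% of its 406 dense windows, where all autosomes together had 1.93%. Of these, 5 were in Fat1 and 2 each in Tenm3 and Ankrd11. Chromosome 16 carried 1, a repeat with a mean of 78.8%. Adjoining windows formed 6 runs of 13 windows in all, in Fat1, Ttn, Ankrd50, Dsp and, on 2 occasions, the alpha protocadherin cluster.

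Short words that factors known to read CpG-bearing sites bind were counted on both strands as a description. TGCCGC, from the imprinting zinc finger protein ZFP57, was found in 40.8% of the 130, 46.0% of the comparison windows and 45.8% of all dense windows. TCCCGC, an E2F word, was found in 35.4%, 64.2% and 63.0%. CACGTG, the E-box of MYC and USF, was found in 40 of the 130 (30.8%), 1133 of the 5964 comparison windows and 19.8% of all dense windows. The methylated windows are longer, and per kb the counts were 0.445, 0.394 and 0.322 against 0.836, 1.35 and 0.248 in the comparison windows.

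The study set G1 against G2/M to ask whether methylation copied after replication is complete by mitosis. Over the 130 windows the library means were 71.5%, 67.4% and 78.1% in G1 against 71.5%, 67.1% and 76.7% in G2/M. The means of 72.3% ± 5.38 and 71.8% ± 4.81 (SD, n = 3) differed by 0.555 percentage points, which was smaller than either SD (exact permutation test, two-sided, p = 0.7, where 0.1 is the smallest value that 3 against 3 allows). In same-numbered libraries G1 was higher by 0.0639, 0.270 and 1.33 percentage points (two-sided exact sign-flip p = 0.25, the smallest that 3 pairs allow). The mean difference depended on single libraries and turned to -2.31 without G1 replicate 3 and to -1.77 without G2/M replicate 2. Replicate 3 was the highest and replicate 2 the lowest library of both phases, so these omissions also left the replicates unbalanced between phases. The part of this imbalance in the turns was not tested.

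Set against the level of the library, the 130 windows showed no phase difference beyond that spread either. Above the mean of all autosomal windows they stood by 8.53, 6.72 and 8.99 percentage points in G1 and by 9.71, 7.06 and 8.34 in G2/M, a difference of -0.289 (exact permutation p = 0.8). Against the longer windows of 60% or more, the difference of differences was -0.423 (exact permutation p = 0.7). All autosomal windows were themselves 0.844 percentage points higher in G1, the longer methylated ones 0.978 and the comparison windows 0.0812. With 3 libraries of each phase these values do not show that the phases were alike.

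**Figure D5:**
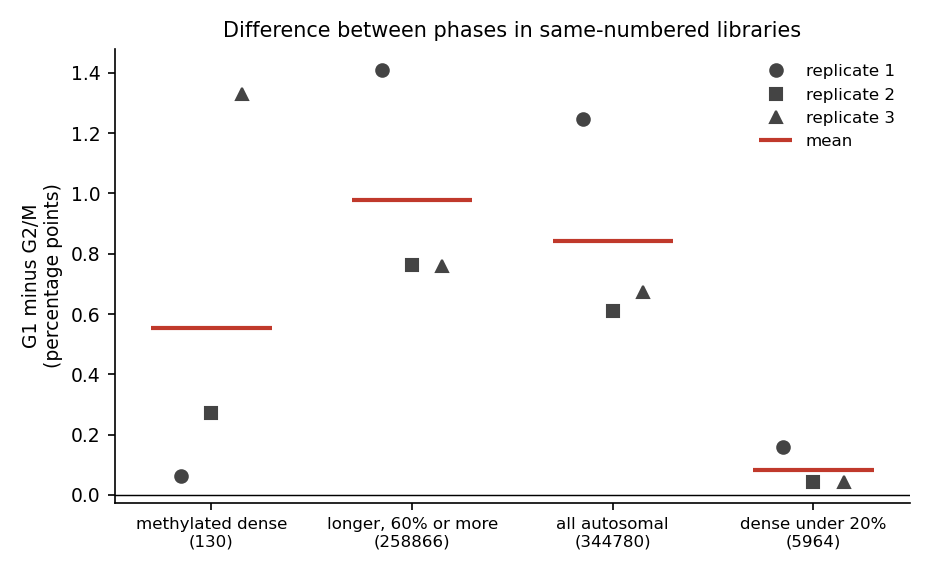
G1 minus G2/M difference (percentage points) of the mean over windows in the 3 same-numbered pairs of libraries (symbols) with their mean (red line), for 4 sets of windows. All 12 pair differences are above 0, and those of the methylated dense windows run from 0.0639 to 1.33.

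Window by window, G1 was higher in 71 of the 130 (54.6%), against 56.97% of all autosomal windows. The differences of phase means ran from -19.5 to 24.8 percentage points with a median of 1.41. With limma on the log2 ratio of methylated to unmethylated percentage over all 359192 windows, 11 of the 130 (8.46%) had an unadjusted p under 0.05, against 2.11% of all windows. Of these, 6 were higher in G1 (1.36% of all windows) and 5 in G2/M (0.75%). None passed after Benjamini-Hochberg adjustment (background 0.00223%), and the smallest adjusted p from limma among them was 1. With the replicate number as a block, 18 had an unadjusted p under 0.05 (background 4.83%), of which 9 were higher in G1 (3.09%) and 9 in G2/M (1.74%), and the smallest adjusted p from limma was 0.894.

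In 8 of the 130 (6.15%) the lowest G1 value exceeded the highest G2/M value, against 4.12% of all windows, and in 3 (2.31%) the reverse held, against 1.98%. With the libraries centred on their own medians this split turned to 4 above (background 4.83%) and 12 below (background 5.1%). All 3 same-numbered differences were above 0 in 19 windows (14.6%, background 16.3%) and below 0 in 17 (13.1%, background 9.74%). These shares are from windows whose spread over libraries is wide, and the part of that spread in the counts was not tested.

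Windows are named here from those in which all 3 same-numbered differences had the same sign. The largest such difference upward was in a Fat1 window, chr8:44949999-44951371, over an alternative start and 84.3% coding. It read 76.5%, 62.9% and 84.7% in G1 against 45.0%, 46.5% and 58.3% in G2/M, so that the phases did not overlap. The difference was 24.8 percentage points, with 31.5, 16.4 and 26.4 in same-numbered libraries, and the window did not pass adjustment (limma unadjusted p = 0.00735, adjusted p = 1). The other 4 Fat1 windows overlapped between phases. An intergenic window, chr3:87599994-87601384, read 77.5%, 81.9% and 87.1% in G1 against 67.8%, 62.5% and 64.5% in G2/M without overlap. The Gm19430 pseudogene window was 17.8 percentage points higher in G1, with overlap.

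In the other direction the largest such difference was in Jag2. Its window chr12:112908393-112909414 read 54.2%, 47.6% and 58.3% in G1 against 67.8%, 75.5% and 75.5% in G2/M, without overlap. The difference was -19.5 percentage points (limma unadjusted p = 0.00594, adjusted p = 1). The other Jag2 window, chr12:112913232-112914570, read 61.6%, 54.8% and 67.7% in G1 against 79.2%, 66.7% and 86.1% in G2/M. A window in Trio and a repeat window in C130026I21Rik differed by -17.4 and -16.0, and the latter had 3293 other alignments. Windows in Kif26b (-18.0) and in Cfap43 and Itprip (-17.0) differed as much, but in replicate 3 G1 was higher by 1.63 and 0.541.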

How the data were processed

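The authors trimmed reads (Trim Galore 0.6.4), aligned them to GRCm38/mm10 with Bismark 0.22.1, and removed duplicates, reads of mapping quality under 20 and reads in outlier 25 kb regions. The authors deposited a percent of CpG methylation for each 100-CpG window and library, without coverage. No normalization between libraries is given, and a window needed a minimum share of its CpGs observed in every library.

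Windows were annotated with GENCODE vM21. A promoter ran from 1000 bp before to 100 bp after a start. The methylated dense windows were aligned to GRCm38 with BLAST 2.17.0, and the other dense windows were not aligned. Windows were tested with limma 3.58.1 (R 4.3.3, lmFit and eBayes with trend) on log2((percent + 1)/(100 - percent + 1)), a step tested on simulated data. Library means were compared by exact permutation over 20 labelings. Same-numbered libraries were taken as pairs because the paper speaks of matched replicates. Deviations of same-numbered libraries from the group means correlated at 0.0278, 0.0310 and 0.0567 over windows. Those of differently numbered libraries of the other phase correlated at -0.0304 to -0.000964.

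The members and gene lists were chosen with earlier results of these data known. Windows named singly were those with the 10 highest means, the 10 smallest lengths, a coding start site, a listed gene, the 3 largest phase differences each way among those with all 3 same-numbered differences of that sign, or a value next to a threshold, or in the longest run. One window next to a threshold is not reported here. Others were named as examples of a group after their values were seen. Alternatives were other length and mean limits, offsets, scales, centring, the replicate block and leaving out each library. Python 3.11.15, scipy 1.17.1 and pandas 2.3.3 were used.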

Additional observations from a re-analysis of the deposited data

How the results depend on the processing

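The G1 minus G2/M difference of the 130 windows (0.555 percentage points) kept its sign with other limits on length or mean, the median, the log2 ratio scale and without windows aligning elsewhere (0.215, an alternative chosen after seeing the data). Leaving out one library gave -2.31 to 3.03, and the sign turned where G1 replicate 3 (-2.31) or G2/M replicate 2 (-1.77) was left out. Relative to all autosomal windows, the difference of -0.289 turned to 0.0538 with a mean limit of 70%, to 0.450 with 50% and to 0.00687 on the log2 ratio scale, and ran from -0.945 to 0.392 without single libraries, above 0 without G1 replicate 2 (0.392) or G2/M replicate 1 (0.383). Relative to longer methylated windows, -0.423 turned to 0.343 with a limit of 50%, and ran from -0.895 to 0.227, above 0 without G1 replicate 2 (0.0843) or G2/M replicate 1 (0.227). None of these differences had an exact permutation p under 0.3, and the causes of the turns were not tested. With the replicate block the exact sign-flip p was 0.25, 0.75 and 0.75, where 0.25 is the smallest possible.

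The share of methylated dense windows with an unadjusted limma p under 0.05 was 8.46% (2.11% of all windows). It was 16.9% after centring each library on its median (4.9% of all windows) and 13.8% with the replicate block (4.83%). With windows of up to 2000 bp it was 4.73%, and without windows aligning elsewhere 7.48%, both beside the same 2.11%. Without single libraries it was 4.62% to 12.3%, where the share of all windows was 1.49% to 3.76% (5.38% without G1 replicate 1, 4.62% without G2/M replicate 1). Of the 11 windows of at most 1000 bp, 0 had an unadjusted p under 0.05 and 0% had phases that did not overlap, which so few windows can give. The unknown read depth limits what can be said of any single window.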
